A study of Canis lupus familiaris with 6 samples.

Results

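The genes of 9 matricellular and elastic fibre proteins, of 15115 genes on the array, were followed in healing bone of the beagle dog mandible. They were periostin (POSTN), tenascin N (TNN), tenascin C (TNC), the thrombospondins THBS1 and THBS2, SPARC, the microfibril protein MFAP5 and the fibulins FBLN1 and EFEMP2. Every probe set of the Affymetrix canine array that is annotated to 1 of these symbols alone was taken, which gave 19 of the 42860 probe sets. All 9 genes had at least 1 probe set, and all 19 passed the filter on low values, as did 25608 probe sets in all.

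The specimens were cylinders of 4.5 mm diameter and 8 mm length from mandibles of dogs aged 9 years. In every group the premolars had been extracted and the sites left to heal for 3 months before the holes were made. Sites implanted with beta-TCP (beta-tricalcium phosphate, a ceramic that bone can replace) were sampled at day 4, day 7 and day 14, and so were control sites drilled and left without it. Each of the 6 groups is 1 array. The sources used here do not say how many animals were used, whether RNA was pooled or which specimens share an animal.

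Matricellular proteins are secreted into the matrix but act mainly on cells, by binding integrins, growth factors and collagen rather than by bearing load. Many are low in resting adult tissue and are made during development and repair. MFAP5 belongs to the microfibrils, the fibrillin-based threads on which elastic fibres are laid down and latent TGF-beta is stored. The fibulins followed here are proteins tied to elastic fibres. In bone, periosteal and osteogenic cells are known sources of periostin and SPARC.

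Levels are given as multiples of the array's own median over all probe sets. Differences are beta-TCP minus control on the scale log2(multiple + 1), where 1 unit is called 2-fold, and they understate the change of weak signals. With 1 array per group, a difference on a single day has no replicate check and no p-value. The array at day 14 with beta-TCP stood apart, with Spearman correlations of 0.723 to 0.779 to the other arrays, and the highest correlation of any other array lay between 0.875 and 0.905. The median difference of all probe sets past the filter was 0.15 at day 4, -0.04 at day 7 and -0.22 at day 14.

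Taken over the 19 probe sets, beta-TCP sites read higher than control sites at days 4 and 7 and mostly lower at day 14. At day 4, 10 of 19 were at least 2-fold higher and 0 lower, where 4.31% of all probe sets were higher and 2.96% lower. At day 7, 11 were at least 2-fold higher and 0 lower, against 3.17% and 3.0% of all. At day 14, 0 were at least 2-fold higher and 9 lower, against 3.89% and 16.2% of all. Probe sets of 1 gene are not independent. By gene, 7 of the 9 had a probe set at least 2-fold higher at day 4, and 6 did at day 7. At day 14, 7 of the 9 genes had a probe set at least 2-fold lower. The share of all genes by that measure was not computed.

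The median of the 19 differences was 1.06 at day 4, 1.54 at day 7 and -0.81 at day 14. In 12 of the 19 the difference was positive at days 4 and 7 and negative at day 14, a sequence found in 22.1% of all probe sets. With quantile normalization or scaling to the 90th percentile the day 14 sign turned for 3 of these 12, namely TNC, the CfaAffx probe set of FBLN1 and the Cfa probe set of EFEMP2. The genes were proposed for description with results of these arrays known, so these counts describe them and are no independent evidence. With each type of probe set centred on its own median, a setting added after the data were seen, the counts were 8 higher at day 4, 11 higher at day 7 and 7 lower at day 14.

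**Figure D1:**
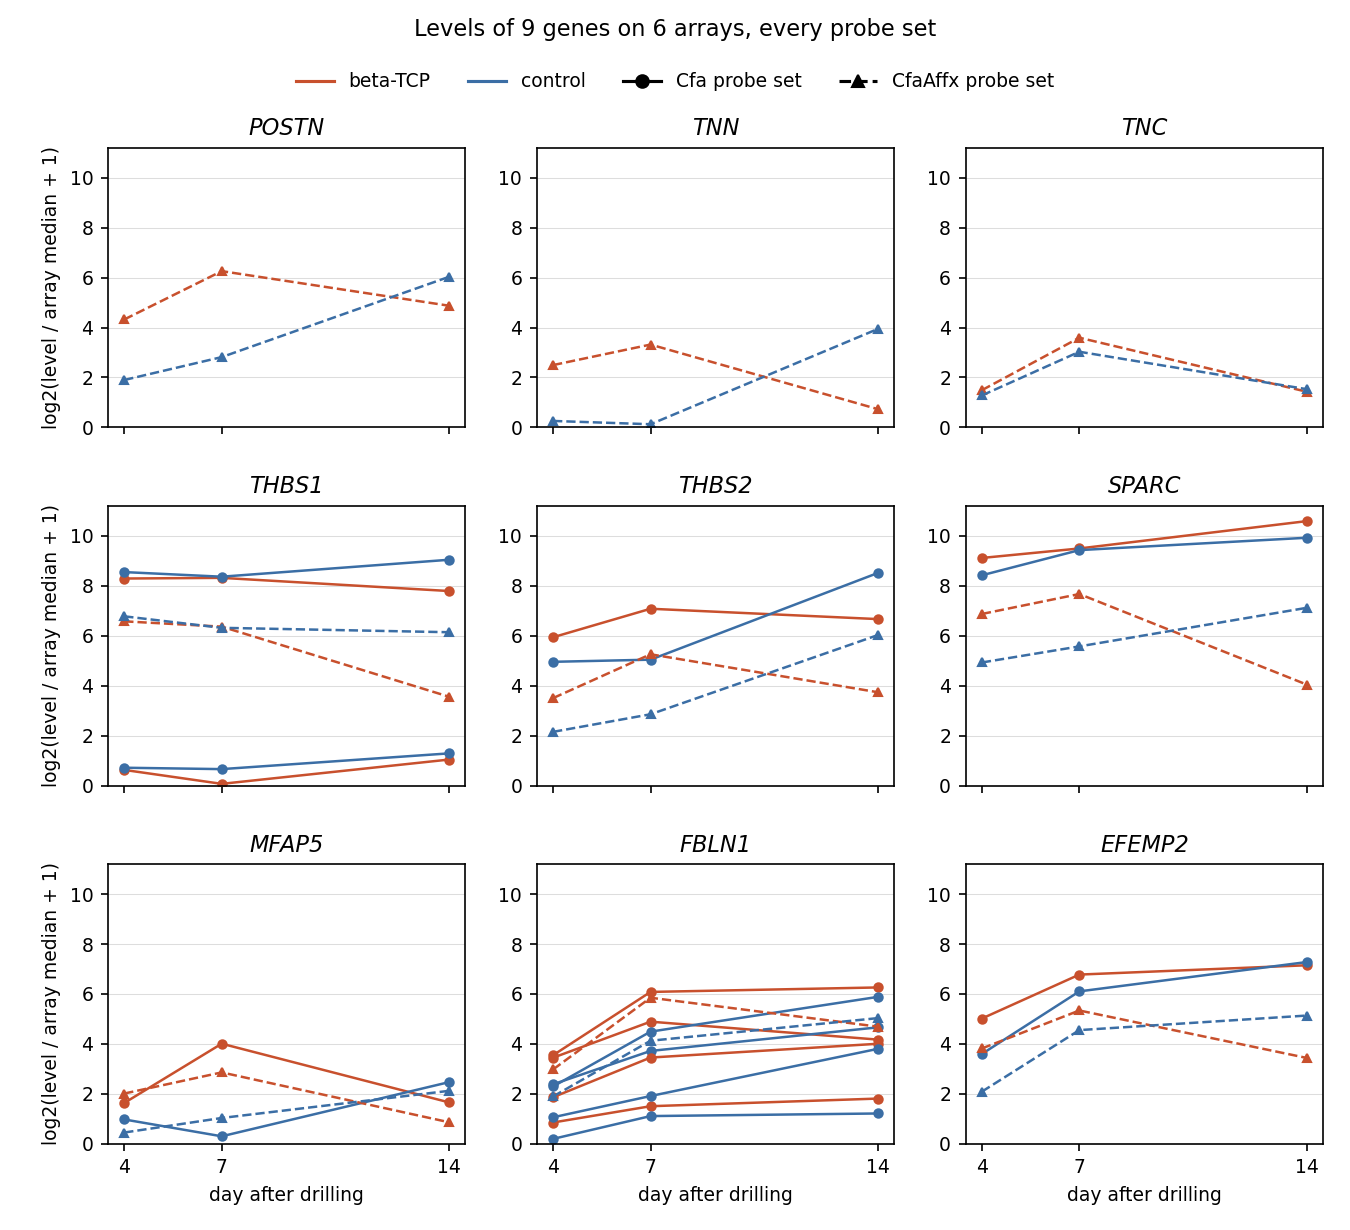
Level of each of the 9 genes (y axis, log2 of the multiple of the array median plus 1) against the day of sampling (x axis, days), with 1 line per probe set, beta-TCP in red and control in blue, Cfa probe sets solid with circles and CfaAffx probe sets dashed with triangles. Each point is 1 array; POSTN, TNN and THBS2 lines cross between days 7 and 14, and TNC is highest at day 7 in both treatments.

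Periostin, a protein of periosteum and periodontal ligament that binds integrins and collagen and aids collagen crosslinking, has 1 probe set, of the CfaAffx type. It read 19.0 times the array median with beta-TCP against 2.73 in the control at day 4. At day 7 it read 75.4 with beta-TCP against 6.04 in the control, and at day 14 it read 28.3 against 64.3. Its level with beta-TCP was highest at day 7, whereas the control array was highest at day 14. The differences were 2.42, 3.44 and -1.16 in order of day. By rank within the array, which no scaling changes, POSTN stood at percentile 97.4 with beta-TCP and 77.8 in the control at day 7, and at 94.3 and 96.4 at day 14.

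Tenascin N, also called tenascin W and known in the mouse from periosteum and developing bone, gave the widest swing of the 9 genes. Its CfaAffx probe set read 4.64 times the array median with beta-TCP against 0.198 in the control at day 4, and 8.97 against 0.0933 at day 7. At day 14 the order was turned, with 0.661 with beta-TCP against 14.4 in the control. Both early control readings and the beta-TCP reading at day 14 lay below the array median. The differences were 2.24, 3.19 and -3.21.

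Tenascin C, a hexameric adhesion-modulating protein that appears transiently in wounds, behaved differently from tenascin N. Its CfaAffx probe set read 1.81 with beta-TCP against 1.43 in the control at day 4, 11.1 against 7.17 at day 7, and 1.69 against 1.89 at day 14. TNC was therefore highest at day 7 in both treatments, and its differences of 0.21, 0.56 and -0.10 were all under 2-fold. It was the only member gene with a control array lower at day 14 than at day 7 by at least 2-fold (-1.50). Averaged over treatments, TNC differed by 1.92 ± 0.37 (SE) between days 7 and 4, which did not pass over all probe sets (limma adjusted p = 0.132).

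The thrombospondins THBS1 and THBS2 differed from each other. Thrombospondin 1 is stored in platelets, inhibits vessel growth and can activate latent TGF-beta. Its brighter Cfa probe set read 312 with beta-TCP against 373 in the control at day 4, 318 against 328 at day 7, and 220.3 against 526 at day 14. The pairs thus lay close together at days 4 and 7 (differences of -0.26 and -0.05) and apart at day 14 (-1.25). The CfaAffx probe set read 94.5 against 109, 81.4 against 78.8, and 10.8 against 69.6 on the same days. Its differences of -0.20, 0.05 and -2.58 were likewise small early and largest at day 14. The third, of the Cfa type, read below the array median on every array of days 4 and 7 and differed by -0.09, -0.59 and -0.25.

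Thrombospondin 2, made by mesenchymal cells and known to limit vessel growth and to affect collagen fibril assembly, turned direction like periostin on both of its probe sets. The Cfa probe set read 60.4 with beta-TCP against 30.1 in the control at day 4, 134 against 32.0 at day 7, and 101 against 365 at day 14. The CfaAffx probe set read 10.4 against 3.45, 37.3 against 6.25, and 12.4 against 64.2 on the same days. The control arrays of days 4 and 7 were close together on the Cfa probe set, and the control array of day 14 was the highest of all 6 on both. The differences were 0.98, 2.04 and -1.85 on the Cfa probe set and 1.35, 2.40 and -2.29 on the CfaAffx probe set.

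SPARC, or osteonectin, binds collagen and mineral and is abundant in bone, and its probe sets did not give 1 answer. The Cfa probe set read 553 with beta-TCP against 342 in the control at day 4, 719.6 against 688 at day 7, and 1538 against 969 at day 14. It stood at or above percentile 99.6 of every array, and its differences were 0.69, 0.07 and 0.67. The CfaAffx probe set read 116 against 29.5, then 203 against 46.6, and at day 14 15.5 with beta-TCP against 138 in the control. Its differences were 1.94, 2.10 and -3.07, so that the direction for SPARC at day 14 depends on the probe set. With quantile normalization the Cfa probe set differed by -0.05 at day 14.

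MFAP5, also called MAGP-2, binds fibrillins and Notch ligands and had weak signals in both treatments, apart from beta-TCP at day 7. The Cfa probe set read 2.11 with beta-TCP against 0.971 in the control at day 4, 15.1 against 0.235 at day 7, and 2.16 against 4.55 at day 14. The CfaAffx probe set read 3.04 against 0.371, 6.27 against 1.05, and 0.823 against 3.36. Both were highest with beta-TCP at day 7 and both were lower with beta-TCP at day 14. The differences were 0.66, 3.71 and -0.81 on the Cfa probe set and 1.56, 1.82 and -1.26 on the CfaAffx probe set.

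The probe sets of both fibulins were higher with beta-TCP at days 4 and 7 and differed among themselves at day 14. Fibulin 1 (FBLN1), which binds fibronectin and is found in elastic fibres and basement membranes, has 5 probe sets. The brightest read 10.7 with beta-TCP against 3.92 in the control at day 4, 66.7 against 21.5 at day 7, and 75.7 against 58.1 at day 14. All 5 were higher with beta-TCP at day 4 (0.66 to 1.25) and at day 7 (0.39 to 1.72), but at day 14 they were divided, from -0.49 to 0.60. The single CfaAffx probe set of FBLN1 read 6.88 against 2.73, 56.7 against 16.5, and 24.9 against 31.8 on the 3 days, and its differences were 1.08, 1.72 and -0.34. The other 3, all Cfa, read 0.811 to 28.7 with beta-TCP and 0.149 to 24.4 in the control over the 3 days.

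EFEMP2, or fibulin 4, is required for elastic fibre assembly and brings lysyl oxidase to its substrate. The Cfa probe set read 31.4 with beta-TCP against 11.1 in the control at day 4, 109 against 67.8 at day 7, and 141 against 154 at day 14. The CfaAffx probe set read 13.1 against 3.26, 39.5 against 22.5, and 9.85 against 34.2. The gap was widest at day 4 among the early days (1.42 and 1.73) and smaller at day 7 (0.67 and 0.79). At day 14 the Cfa probe set differed by -0.13 and the CfaAffx probe set by -1.70.

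**Figure D2:**
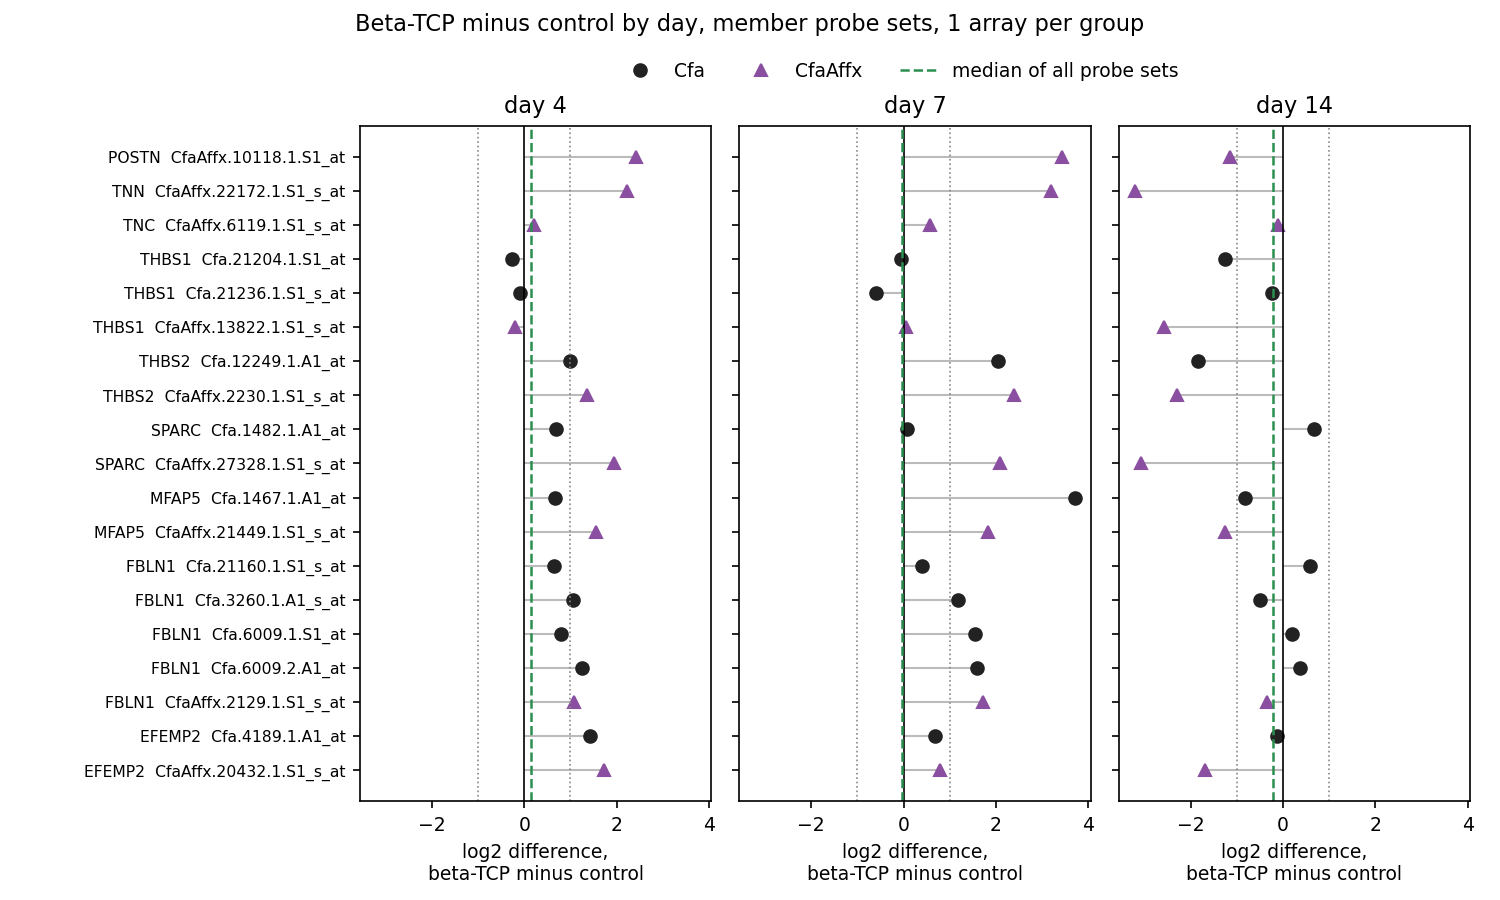
Log2 difference, beta-TCP minus control (x axis), of each of the 19 probe sets (y axis) at days 4, 7 and 14; circles are Cfa and triangles CfaAffx probe sets, dotted lines mark 2-fold and the dashed line is the median of all probe sets past the filter. At day 14 the 9 CfaAffx probe sets all lie below 0, except that TNC and FBLN1 lie above it with quantile normalization or scaling to the 90th percentile, and 4 of the 10 Cfa probe sets lie above it.

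Over 3748 genes with both name types of probe set, the types differed most at day 14. The median gap, CfaAffx minus Cfa, was -0.35 then, against -0.0027 at day 4 and 0.11 at day 7. Among the members, MFAP5 (-1.88) and FBLN1 (0.55) had their widest gap at day 7. POSTN, TNN and TNC have CfaAffx probe sets alone, so counts by type cover different genes. Cfa probe sets are 10 of the 19 and CfaAffx probe sets 9. At day 14, 2 of the 10 Cfa probe sets were at least 2-fold lower (12.5% of all Cfa probe sets) and 0 higher (4.4%), with a median of -0.19. Of the 9 CfaAffx probe sets 7 were at least 2-fold lower (20.6% of all CfaAffx probe sets) and 0 higher (3.29%), with a median of -1.70. The median of all was -0.13 for Cfa and -0.33 for CfaAffx on that day, so both member medians lay below those of their type, the Cfa median only slightly.

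Both types were on the higher side before day 14. At day 4, 3 of 10 Cfa probe sets were at least 2-fold higher (4.63% of all) and 0 lower (2.75%), and 7 of 9 CfaAffx probe sets were higher (3.94%) and 0 lower (3.21%). At day 7, 5 of 10 Cfa probe sets were higher (3.33%) and 0 lower (3.44%), and 6 of 9 CfaAffx probe sets were higher (2.98%) and 0 lower (2.49%).

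The 6 member genes THBS1, THBS2, SPARC, MFAP5, FBLN1 and EFEMP2 have both types, and in all 6 the CfaAffx difference at day 14 was the lower. The gap, CfaAffx minus Cfa, was -3.74 for SPARC, -1.83 for THBS1 and -1.57 for EFEMP2. It lay between -0.51 and -0.44 for the other 3. Over 3748 genes with both types the median gap at day 14 was -0.35, and its 5th to 95th percentiles were -1.69 to 1.09, so SPARC and THBS1 lay outside that range. SPARC was also outside it at day 4 (1.25, with an upper bound of 0.75) and at day 7 (2.03, upper bound 0.84). MFAP5 was outside at day 4 (0.90) and, on the other side, at day 7 (-1.88, lower bound -0.69).

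**Figure D3:**
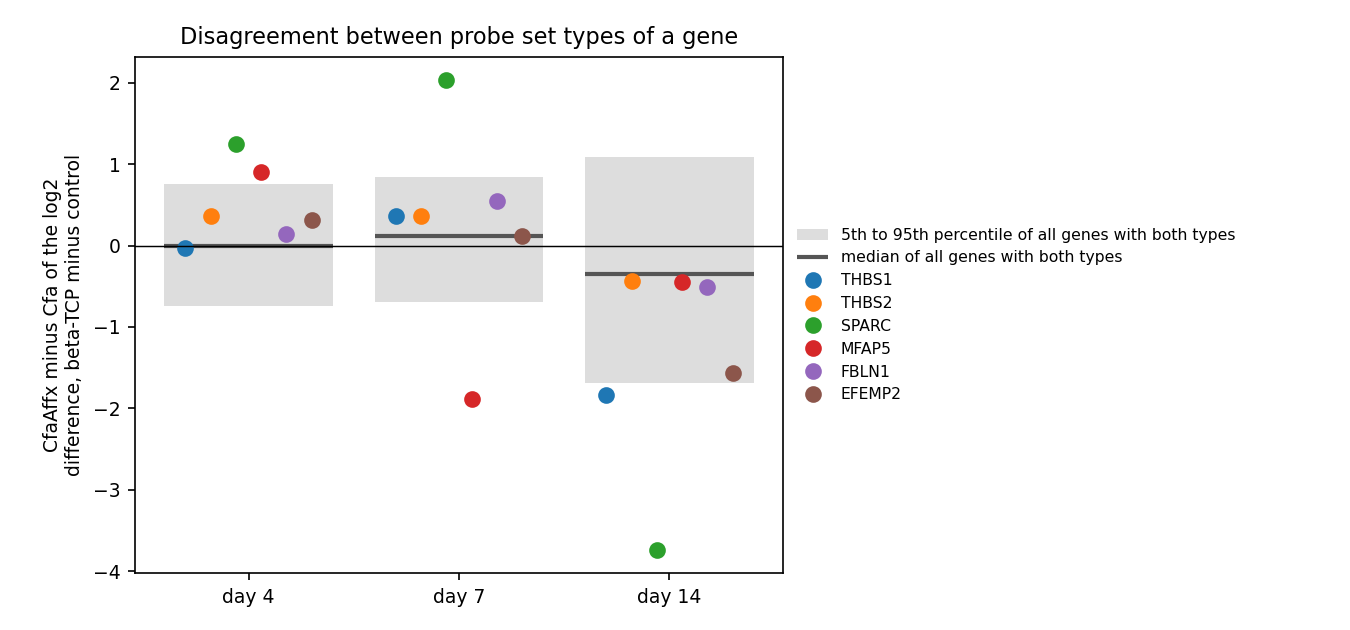
CfaAffx minus Cfa of the log2 difference between beta-TCP and control (y axis) for the 6 genes with both types of probe set, by day (x axis). The grey box spans the 5th to 95th percentile and the bar is the median of 3748 genes; SPARC lies above the box at days 4 and 7 and at -3.74, below it, at day 14.

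The next comparison was the average difference between beta-TCP and control over the 3 days, tested with limma in a model with additive terms for day and for treatment. Over the 6 arrays it has 2 residual degrees of freedom, and its residual holds differences between days, animals and arrays together. No probe set passed an adjusted p of 0.05 (0 of 25608, 0.0%), while 1057 had an unadjusted p under 0.05. Of the 19 member probe sets 0 passed and 2 had an unadjusted p under 0.05, and the lowest adjusted p was 0.943 (limma). The averages ran from -0.91 (THBS1, CfaAffx) to 1.57 ± 0.73 (SE) for POSTN, and 16 of the 19 were positive.

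Without the day 14 pair, 5 of the 19 passed, all of them higher and all CfaAffx probe sets, where 108 of 25608 (0.422%) passed in all, 61 of them higher (0.238%) and 47 lower (0.184%). They were POSTN (2.93 ± 0.33, SE, limma adjusted p = 0.00205), TNN (2.71 ± 0.33, 0.00239), SPARC (2.02 ± 0.31, 0.00909), THBS2 (1.88 ± 0.34, 0.0253) and MFAP5 (1.69 ± 0.31, 0.028). That fit has 1 residual degree of freedom, and its errors come mostly from the spread over all probe sets. The Cfa probe sets of THBS2 (1.51, limma adjusted p = 0.0610), MFAP5 (2.18, 0.0633) and SPARC (0.38, 0.782) did not pass. Neither did any probe set of FBLN1, EFEMP2, TNC or THBS1.

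The last comparison was between days. Day 14 was deposited on another scale than days 4 and 7, so in differences from it the time point cannot be told apart from its processing. In the same model 4 of the 19 member probe sets rose between days 4 and 14, and 0 fell. In all, 837 of 25608 probe sets passed (3.27%), of which 198 rose (0.773%) and 639 fell (2.5%). They were 3 of FBLN1, by 3.15 ± 0.41 (SE, limma adjusted p = 0.011), 2.44 ± 0.42 (0.0238) and 2.42 ± 0.50 (0.0410), and the Cfa probe set of EFEMP2, by 2.90 ± 0.44 (0.0167). With no filter, or with a pseudocount of 16, none of the 19 passed (lowest limma adjusted p = 0.0996 and 0.121).

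Between days 7 and 4 none of the 19 passed (0 of 25608 in all, 0.0%), and in limma 7 of the 19 and 2814 of all had an unadjusted p below 0.05. The lowest adjusted p was 0.114, for the brightest FBLN1 probe set (2.36 ± 0.41, SE). Tested on Cfa probe sets alone, or with 1 probe set per gene, that probe set passed (0.049 and 0.0378). Between days 14 and 7 none of the 19 passed either, where 3 of 25608 (0.0117%) did, and 3 of the 19 had an unadjusted p under 0.05.

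Within each treatment the members moved on different days. With beta-TCP, 11 of the 19 probe sets were at least 2-fold higher at day 7 than at day 4 (4.71% of all), and 0 were lower (2.69%). From day 7 to day 14, 1 of the 19 was at least 2-fold higher with beta-TCP (SPARC, Cfa), and 10 were lower, against 4.39% and 19.7% of all. On the control arrays 7 were at least 2-fold higher at day 7 than at day 4 (13.6% of all), and 10 were higher at day 14 than at day 7 (3.95% of all), with 0 (5.68%) and 1 (6.55%) lower. Over the whole interval from day 4 to day 14, 5 were higher and 4 lower with beta-TCP (8.43% and 21.3% of all). In the control 15 were higher and 0 lower (15.0% and 9.38% of all).

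With beta-TCP the steps from day 7 to day 14 were -1.38 for POSTN, -2.59 for TNN, and -0.41 and -1.52 for the THBS2 probe sets. In the control the same steps were 3.21, 3.81, and 3.47 and 3.17. The EFEMP2 probe sets, Cfa and then CfaAffx, stepped by 1.76 and 1.52 with beta-TCP and by 2.50 and 2.46 in the control between days 4 and 7. Between days 7 and 14 they stepped by 0.37 and -1.90 with beta-TCP and by 1.17 and 0.58 in the control. The 5 FBLN1 probe sets stepped by 0.65 to 2.87 with beta-TCP and 0.85 to 2.23 in the control between days 4 and 7, and by -1.16 to 0.55 and 0.10 to 1.89 between days 7 and 14. The lowest of the 6 arrays was the control at day 4 for 13 of the 19 probe sets, and the highest was beta-TCP at day 7 for 8, the control at day 14 for 6, beta-TCP at day 14 for 4 and the control at day 4 for 1.

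Marker genes of several cell types also differed between the treatments. Each gene was taken by its probe set with the highest mean. Of 10530 genes taken that way, 4.52%, 2.96% and 3.47% were at least 2-fold higher with beta-TCP at days 4, 7 and 14. The shares at least 2-fold lower were 3.1%, 3.44% and 15.4%. At day 4, 7 of 8 measured stratified epithelium genes were at least 2-fold lower with beta-TCP, and the summed level of that list was 24.4 with beta-TCP against 281 in the control. Over the 3 days its sums ran from 24.4 to 56.0 with beta-TCP and from 19.6 to 281 in the control. Of 6 smooth muscle and pericyte genes 4 were at least 2-fold higher at day 4, with sums of 293 against 119 (293 to 1070 and 119 to 765 over the days). Of 10 genes of fibroblasts and periosteal mesenchyme 3 were higher at day 4 and 0 either way at day 7. At day 14, 3 of the 10 were lower, where 15.4% of all genes were. The sums of the 10 were 3096 against 2398, 3878 against 3868 and 7787 against 5940.

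Of 7 osteoblast genes, 3 were at least 2-fold higher at day 4, 6 at day 7 and 4 at day 14, and none was lower. Their sums were 78.9 with beta-TCP against 16.5 in the control at day 4, 545 against 149 at day 7 and 128 against 115 at day 14. BGLAP and MEPE, markers of mature bone cells, read below the array median on all 3 control arrays. With beta-TCP they also read below it at day 4 (0.157 and 0.047) and above it at days 7 and 14. The platelet list had sums of 6.53 to 53.9 with beta-TCP and 17.1 to 298 in the control. Of its 3 genes past the filter 1 (PPBP) was at least 2-fold lower on each day. PPBP made up most of the sums at day 4 (49.4 with beta-TCP and 292 in the control). ITGA2B and GP9 were under 2-fold on each day and slightly higher with beta-TCP at day 14 (0.12 and 0.20). Neutrophil genes were at least 2-fold lower with beta-TCP in 2, 3 and 4 of 5 at days 4, 7 and 14, and chondrocyte genes higher in 2, 3 and 1 of 3. Endothelial sums were 136 with beta-TCP against 64.0 in the control at day 4, 241 against 348 at day 7 and 321 against 233 at day 14. Macrophage sums were 136 against 182, 217 against 425 and 252 against 184. Of 7 macrophage genes 0 differed at least 2-fold at day 4, and at days 7 and 14 alike 1 was higher and 2 lower. At day 14 CD68 made up most of the beta-TCP sum (214, against 70.5 in the control). CD163 (-2.03) and MARCO (-3.39) were lower that day, and the list median was -0.41. Skeletal muscle sums stayed between 4.37 and 7.42 with beta-TCP and between 4.01 and 4.85 in the control. No marker of these lists read at or under 0.01 times the array median on any array. That value is the lowest deposited on the control array of day 4, and the lowest values of the other arrays were not looked up. In bulk specimens fewer cells of a type and less RNA per cell cannot be told apart, and the part of these markers in the members' differences was not tested.

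Related genes were taken from 4 lists, each gene by its probe set with the highest mean. On this basis, of 10530 genes, 4.52%, 2.96% and 3.47% read at least 2-fold higher on days 4, 7 and 14, and 3.1%, 3.44% and 15.4% read lower. No gene of these lists passed in the average over days (0 of 10530, 513 at an unadjusted p under 0.05, limma).

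Of 13 other matricellular genes past the filter, 2 were at least 2-fold higher at day 4, the SPARC relatives SMOC2 (2.10) and FSTL1 (1.35). At day 7, 3 were higher, THBS4 (1.45), FSTL1 (1.37) and SMOC2 (1.17). At day 14, FSTL1 (-3.10) and the TGF-beta-induced adhesion gene TGFBI (-2.51) were lower and the thrombospondin COMP (1.59) was higher. FSTL1 thus had the same sequence of signs as POSTN, which was found in 22.1% of all probe sets. SMOC2 and THBS4 shared it with small differences at day 14 (-0.86 and -0.15). So did THBS3 (-0.16 at day 14), named after its values were seen. The list medians were 0.43, -0.07 and -0.16, close to those of all genes at days 7 and 14 (0.17, -0.08 and -0.23).

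Of 19 elastic fibre and microfibril genes, 4 differed at least 2-fold at day 4, all higher: the fibrillins FBN2 (1.56) and FBN1 (1.37), the fibulin EFEMP1 (1.25) and the crosslinking enzyme LOXL2 (1.02). At day 7 the hemicentin HMCN1 (2.06) and EFEMP1 (1.50) were higher and FBN2 (-1.71) was lower. At day 14, 5 were lower, led by lysyl oxidase (LOX, -2.81), EFEMP1 (-1.71), FBN2 (-1.34) and LOXL2 (-1.24). The fifth, FBLN2 (-1.06), and the only one higher, LTBP3 (1.01), are named after their values were seen. FBN1 and FBN2, to which MFAP5 binds, lay on the opposite side from MFAP5 at day 7. They differed by -0.97 and -1.71, against 3.71 on the Cfa and 1.82 on the CfaAffx probe set of MFAP5. At day 4 they lay on the same side as both MFAP5 probe sets, higher with beta-TCP. At day 14 FBN2 (-1.34) was lower with beta-TCP, as both MFAP5 probe sets were. FBN1 (-0.25) then lay near the median of all genes (-0.23).

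Of 12 receptor and adhesion genes, the integrin ITGB5 (1.26) was higher and the proteoglycan SDC4 (-1.38) lower at day 4. At day 7 the thrombospondin receptor CD36 (1.85) was higher and SDC4 (-1.28) lower. At day 14, 4 were lower, CD36 (-1.96), SDC4 (-1.28), the other thrombospondin receptor CD47 (-1.20) and the periostin-binding integrin subunit ITGAV (-1.13). Of 14 TGF-beta ligands, receptors and targets, 0 differed at least 2-fold at day 4, the activin subunit INHBA (-1.66) was lower at day 7, and TGFB2 (-1.59) and SMAD4 (-1.27) were lower at day 14.

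**Figure D4:**
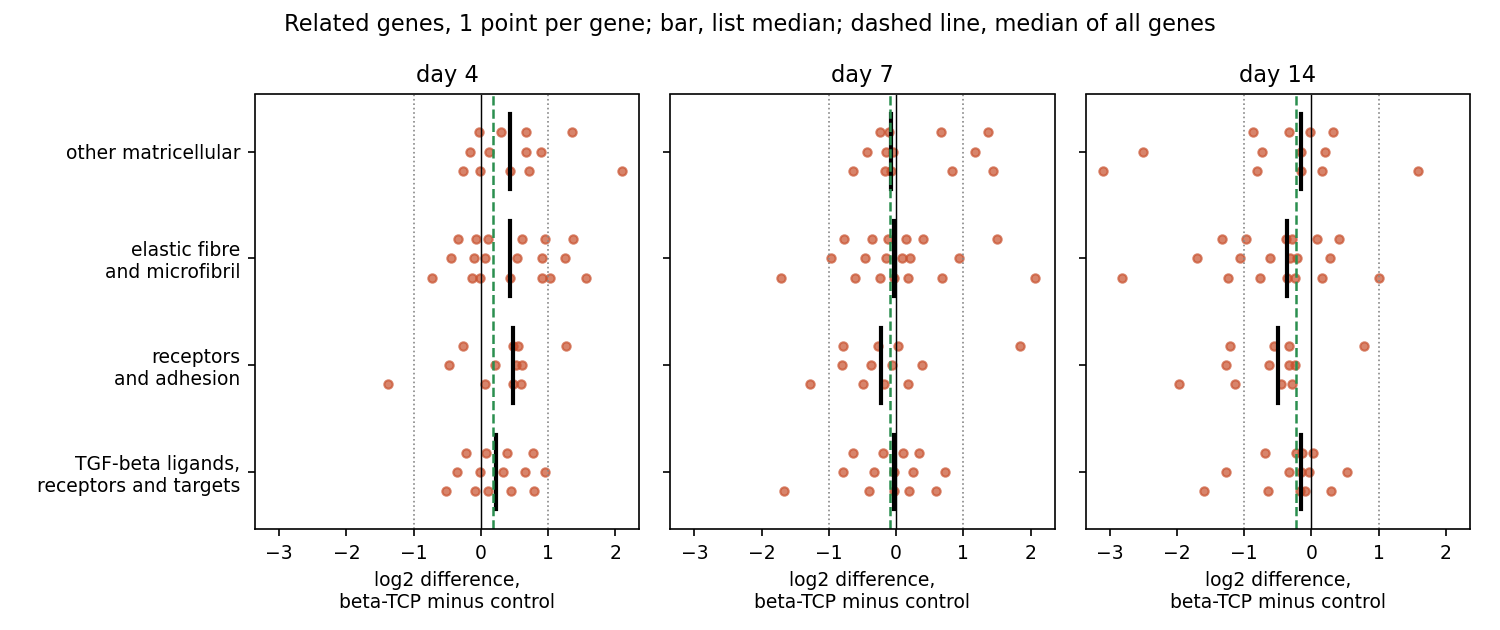
Log2 difference, beta-TCP minus control (x axis), of related genes in 4 lists (y axis) at days 4, 7 and 14, with 1 point per gene and the list median as a black bar. The dashed line is the median of all genes and dotted lines mark 2-fold; the list medians stay between -0.50 and 0.47.

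The profiles of single genes over the 6 arrays were also set beside those of the members, as the root mean square distance between centred log2 profiles, among genes with a range of at least 2 units. Nearest to POSTN of 1479 genes was the heparin-binding growth factor PTN (0.33), followed by the Wnt antagonist SFRP2 (0.40) and SCUBE3 (0.51). Nearest to TNN were the small proteoglycans ASPN (0.29) and OGN (0.51), then IGFBP2 (0.62). MFAP5 was nearest to IGFBP2 (0.39), DESI2 and PTPRD, and THBS2 to TMEFF1 (0.20), LRIG3 and ITGBL1.

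FBLN1 lay nearest to the alkaline phosphatase gene ALPL (0.26), then to EFEMP2 (0.33) and SERPINF1 (0.36). EFEMP2 lay nearest to the gelatinase gene MMP2 (0.22), OLFML2B (0.26) and the procollagen protease ADAMTS2 (0.26). TNC was nearest to CDH15 (0.11), SGIP1 and AQP1, and SPARC on its Cfa probe set to IGFBP7 (0.049), LOC485640 and TMEM141. THBS1, whose own range was under 2 units, was nearest to CD163 (0.25), MORF4L2 and RPL22L1. Distances are smaller for flat profiles, so they are not comparable between members.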

How the data were processed

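Gene expression was measured on 6 Affymetrix arrays, with labelled RNA made from 100 ng of total RNA per the labels' protocols. The values the authors deposited for days 4 and 7 are a signal divided by the array median (median 1.00). The lowest value was 0.01 on the control array of day 4. For day 14 the deposited values are an intensity that is not divided (medians 6.2 with beta-TCP and 12 in the control). These units follow from the values themselves, as the sources used here name no software or scaling.

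Each array was divided by its median, and log2(value + 1) was taken. Left out were 90 pairs of probe sets with 1 name stem ending in _a_at and _at, none of them members. This omission was not part of the design and was taken over because an earlier look had found some pairs in opposite order at day 14. Probe sets whose mean reached the 40th percentile were kept. Of 29254 probe sets with 1 gene, 27680 matched the RefSeq gene table of UU_Cfam_GSD_1.0 by gene ID, which was used for names only; 439 have several genes and 13167 none. Members and lists were chosen with earlier results of these data known. The number of arrays limits the precision, and no detection calls were used.

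The additive fit used limma 3.58.1 in R 4.3.3 (lmFit and eBayes, two-sided, Benjamini-Hochberg over all kept probe sets) and was tested on simulated data. The simulated treatment effect was equal on all days, so that test did not cover effects that turn between days. Named were all member probe sets, up to 4 genes of each related list by largest difference on a day when at least 2-fold, and the 3 nearest profiles of each member. Alternatives were other scalings, pseudocounts, filters and probe set choices, and leaving out a day.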

Additional observations from a re-analysis of the deposited data

Results flagged for a closer look

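A group of 7 probe sets read at least 2-fold higher with beta-TCP on 1 day and at least 2-fold lower on another, and they are listed because the direction turned between days. The earlier difference less that of day 14 was 6.40 for TNN, 5.17 for the CfaAffx probe set of SPARC and 4.60 for POSTN, all with day 7 as the earlier day. For THBS2 it was 4.69 on the CfaAffx and 3.89 on the Cfa probe set, and for MFAP5 it was 3.08 on the CfaAffx probe set, again from day 7. For the CfaAffx probe set of EFEMP2 it was 3.42, from day 4. With 1 array per group these differences between days were not tested. All 7 use both day 14 arrays, of which the beta-TCP array stood apart from the others. From day 7 to day 14 the control step was larger than the beta-TCP step for POSTN (-1.38 with beta-TCP against 3.21 in the control), TNN (-2.59 against 3.81) and THBS2 (-0.41 against 3.47 on the Cfa and -1.52 against 3.17 on the CfaAffx probe set). For the rest of the 7 the beta-TCP step was the larger in size. These were the CfaAffx probe sets of SPARC (-3.62 with beta-TCP against 1.54 in the control), MFAP5 (-2.00 against 1.09) and EFEMP2 (-1.90 against 0.58). Of the 7, 6 are CfaAffx probe sets.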

How the results depend on the processing

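The average over days sets beta-TCP against control within each day. No further pairing, by replicate number, was possible because the labels give none and each group has 1 array. Member probe sets at least 2-fold higher or lower on a day kept their counts within 1.5 times, except with a pseudocount of 16 (1 higher at day 4, 6 higher at day 7, 5 lower at day 14), with a pseudocount of 0.25 (1 lower at day 7) and with scaling to the 90th percentile (1 higher at day 14). A pseudocount of 16 shrinks differences of weaker signals by construction. No difference of at least 2-fold on a single day turned its sign under the 5 settings run; smaller ones did. With quantile normalization the sign turned at day 14 for the Cfa probe set of SPARC (-0.047), the CfaAffx probe set of FBLN1 (0.100), the Cfa probe set of EFEMP2 (0.28) and TNC (0.014), and at day 7 for the brighter Cfa probe set of THBS1 (0.17). Scaling to the 90th percentile turned the same values except that of SPARC (0.080, 0.30, 0.18 and 0.046 in that order), and centring each type of probe set turned those of EFEMP2 (to 0.00), TNC (0.23) and THBS1 (0.019).

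For the average over days, 3 probe sets passed without the day 4 pair and 108 without the day 14 pair; the count was 0 in the other alternatives. Member averages, none past the threshold, turned without the day 4 pair for TNN (-0.011), the CfaAffx probe set of SPARC (-0.49) and that of EFEMP2 (-0.46). Without the day 7 pair they turned for TNN (-0.49), THBS2 (-0.43 and -0.47), the CfaAffx probe set of SPARC (-0.57) and the Cfa probe set of MFAP5 (-0.077).

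Between days 14 and 4, 1419 probe sets passed with quantile normalization, 1839 with scaling to the 90th percentile, 323 with a pseudocount of 0.25, 0 with a pseudocount of 16 (4470 at an unadjusted p under 0.05 in limma), 0 with no filter (7076), 518 with 1 probe set per gene and 233 with CfaAffx probe sets alone. Between days 7 and 4 the count was 43 with quantile normalization, 75 with the 90th percentile, 50 with 1 probe set per gene and 55 with Cfa probe sets alone. Between days 14 and 7 it was 15 and 22 with these scalings, 9 with Cfa probe sets alone, 54 with the _a_at pairs kept (added after seeing the data), and 0 with a pseudocount of 16 (2049), no filter (3969), 1 probe set per gene (1025) and CfaAffx alone (1388).

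Of the 4 member calls between days 14 and 4, those of 2 FBLN1 probe sets were also lost with a pseudocount of 0.25 (limma adjusted p = 0.0506 and 0.0773), and 1 of these with CfaAffx probe sets alone (0.0684). The Cfa probe set of SPARC gained a call there with Cfa probe sets alone (1.49, 0.0460). Member values near 0 turned for THBS1 between days 14 and 4 (0.0018 with a pseudocount of 16). Between days 14 and 7 they turned for the Cfa probe set of MFAP5 (0.092 with quantile normalization, 0.022 with the 90th percentile, 0.32 with a pseudocount of 0.25) and the CfaAffx probe set of FBLN1 (0.021 and 0.093 with these scalings). The cause of these shifts was not tested. The Spearman correlations and ranks within an array do not depend on scaling. Signal over background could not be judged, since no detection calls were used.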
